A study of Mus musculus with 6 samples.

Results

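The mouse Fc gamma receptors and their common signalling chain were followed in RAW 264.7 cells given mica fine particles (MFP), and the activating receptors were set against the inhibitory one. Members were all array probes annotated to Fcgr1, Fcgr3, Fcgr4, Fcgr2b or Fcer1g, by current or older symbol, that had a detection p under 0.05 on both arrays of at least 1 time point. The annotation held 9 probes for these 5 genes, and 7 probes of 4 genes met the rule, out of 14420 probes of 9268 genes that met it in the whole series. RAW 264.7 is a mouse leukemic monocyte and macrophage line, here a single line for which no engineered genetic change is named, and mica is an aluminosilicate mineral. Cells kept in medium with little serum were given 100 µg/mL MFP and collected at 0 h, 12 h and 48 h, and RNA of each time point was hybridized to 2 Illumina Mouse WG-6 beadchip arrays. The labels name the particles for the 0 h cells too, while the study calls these cells nontreated, and they served as the starting point of each comparison. No array held untreated cells kept to 12 h or 48 h. An effect of MFP therefore cannot be told apart from an effect of time in culture. Nothing in the labels places the 2 arrays of a time point in separate cultures, so every p-value here reflects array-to-array spread that may be purely technical.

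Fc gamma receptors bind the constant part of immunoglobulin G and let macrophages take up antibody-coated particles. In the mouse, Fcgr1, Fcgr3 and Fcgr4 encode activating receptors whose ligand-binding chains pair with the common gamma chain, encoded by Fcer1g, and the activation motif (ITAM) in the tail of that chain is phosphorylated by Src family kinases and recruits the kinase Syk. Fcgr2b encodes the inhibitory receptor, which carries an inhibitory motif (ITIM) in its own tail, recruits the lipid phosphatase encoded by Inpp5d and raises the threshold for activation.

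In the GRCm38.p6 annotation of RefSeq, 4 of the genes lie within 274 kb of chromosome 1, with Fcgr2b at chr1:170960558-170976071, Fcgr4 at chr1:171018926-171029761, Fcgr3 at chr1:171051169-171065915 and Fcer1g at chr1:171229572-171234349. Fcgr1 lies apart, at chr3:96282909-96293969. The 100 bases before the start site of the 4 receptor genes are shown because all 4 receptor genes were higher at 48 h than at 0 h, though on different time courses, 5′ to 3′ on the gene's own strand, with capitals on each match to GAGGAA, the letters of a site for the myeloid ETS factor PU.1, searched on both strands (here in every case as its reverse complement). They are the RefSeq sequences of chr3:96293970-96294069 (minus strand), chr1:171059395-171059494 (minus strand), chr1:171018826-171018925 (plus strand) and chr1:170976072-170976171 (minus strand).
Fcgr1: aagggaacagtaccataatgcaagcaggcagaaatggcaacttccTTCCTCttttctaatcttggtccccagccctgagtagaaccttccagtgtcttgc
Fcgr3: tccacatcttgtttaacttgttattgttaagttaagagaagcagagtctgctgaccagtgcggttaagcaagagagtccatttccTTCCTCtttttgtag
Fcgr4: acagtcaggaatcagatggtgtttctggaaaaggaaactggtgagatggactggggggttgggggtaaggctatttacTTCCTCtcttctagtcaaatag
Fcgr2b: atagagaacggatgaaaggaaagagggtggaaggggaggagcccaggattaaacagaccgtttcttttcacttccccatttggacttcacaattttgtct
The match began 55 bases before the start site of Fcgr1, 15 before that of Fcgr3 and 22 before that of Fcgr4. The promoter table holds another start site of Fcgr3, just upstream, with the same match 6 bases before it. No match stood in the windows of Fcgr2b and Fcer1g. Of all 32851 RefSeq promoters, 9.82% held these letters within 100 bases of the start. The interferon-stimulated response element, a GAAA run repeated after 2 bases, had a match that began 73 bases before the start of Fcgr4, clear of the GAGGAA match, and 0.983% of promoters held one within 100 bases. A match is a run of letters and was not tested as a binding site.

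All 7 receptor probes were higher at 48 h than at 0 h, and the activating receptors gained more than the inhibitory one. Every probe had been detected on all 6 arrays, the 0 h arrays included. Of the 7 probes, 4 read the single gene Fcgr2b, so the counts are of probes and not of separate genes. By 48 h, 7 of 7 probes had risen against 0 h at an adjusted p under 0.05, where 25.0% of the 14091 probes tested rose, and 4 of the 7 rose at least 2-fold, where 5.01% did. At 12 h against 0 h, 5 of 7 rose, where 8.73% of all probes rose, and 2 of them at least 2-fold, where 1.0% did. Between 48 h and 12 h, 5 of 7 rose, where 18.9% rose, and 3 at least 2-fold, where 2.31% did. The median log2 fold change of the 7 probes was 0.63 at 12 h and 1.05 at 48 h against 0 h, and 0.42 at 48 h against 12 h, beside medians of -0.02, -0.00 and 0.01 over all probes. Each median of the 7 was the value of an Fcgr2b probe. On the log2 table that the authors deposited, limma called 3 of 7 probes at 48 h against 0 h, those of Fcgr1, Fcgr3 and Fcgr4, 1 at 48 h against 12 h and 0 at 12 h against 0 h (2 at an unadjusted p under 0.05). That table was normalized in 2 separate sets of 3 arrays, and with the set as a block, a fit added after seeing the data, it gave 7, 6 and 6 of 7 in the same order. Scaling each array to its 75th percentile in place of quantile normalization called 3 of 7 at 12 h against 0 h and 3 of 7 at 48 h against 12 h. The 12 h and 48 h comparisons share the 0 h arrays. In RNA from a whole flask, more RNA in each cell cannot be told apart from a larger share of cells that hold it.

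**Figure D1:**
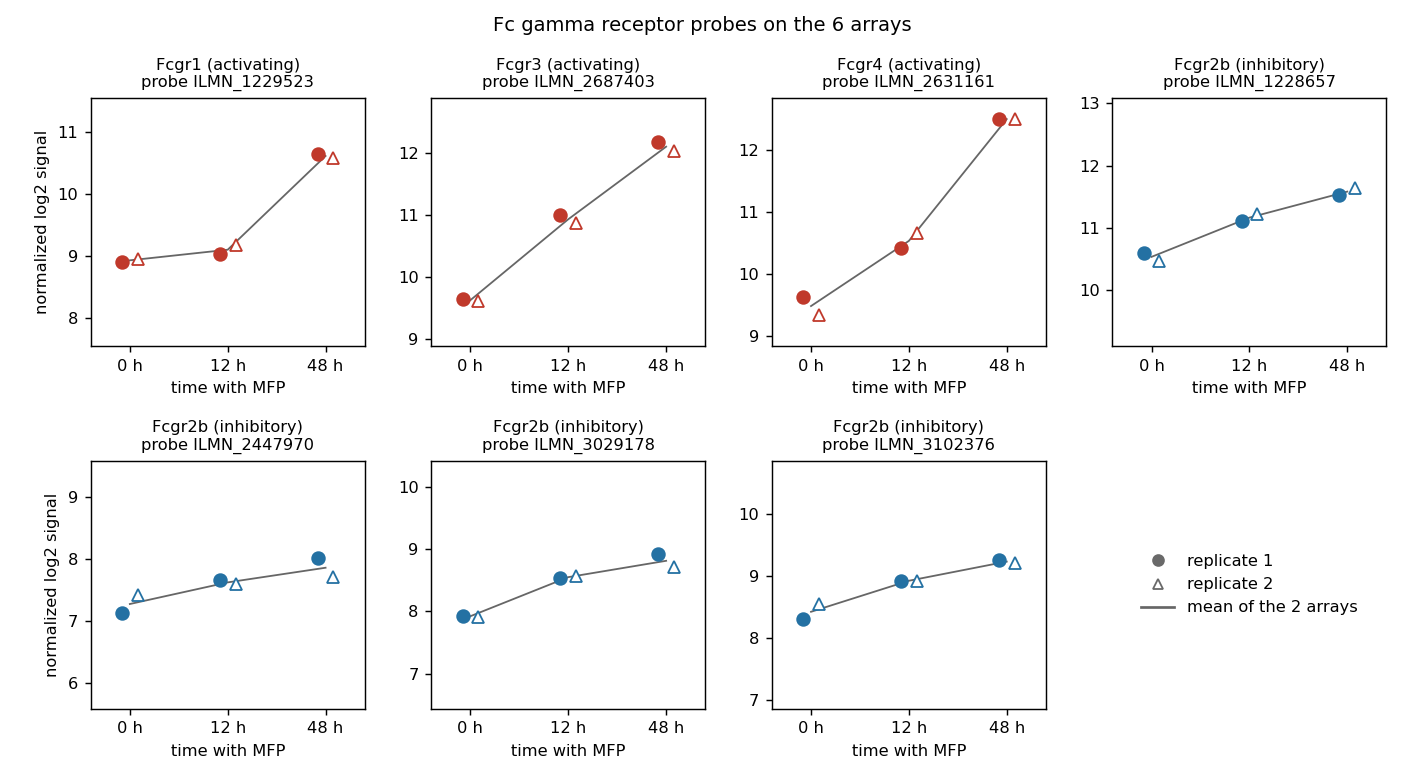
Normalized log2 signal (vertical axis, each panel spanning the same number of log2 units) of the 7 detected Fc gamma receptor probes at 0 h, 12 h and 48 h with MFP (horizontal axis, equal steps, not to scale in hours), with a filled circle for replicate 1, an open triangle for replicate 2 and a line through the means of the 2 arrays. The 2 arrays of 48 h lay above the 2 arrays of 0 h in every panel, and Fcgr1 differs from the other panels in its flat course up to 12 h.

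Among the activating receptors Fcgr4, the mouse receptor for the IgG2a and IgG2b subclasses, had the largest change. Its deposited signals, which are fluorescence intensities before any normalization between arrays, were 1006 and 557 at 0 h, then 1265 and 2089 at 12 h, then 4177 and 6397 at 48 h. After log2 transformation and quantile normalization its values were 9.63 and 9.35 at 0 h, then 10.42 and 10.66 at 12 h, then 12.50 and 12.51 at 48 h. The 3 time points did not overlap. The rise was 8.08-fold at 48 h against 0 h (log2 fold change 3.01 ± 0.13 SE, adjusted p 2.00e-06 by limma), and 0.135% of all probes changed by more in that direction. It was 2.07-fold at 12 h against 0 h (1.05 ± 0.13, adjusted p 0.00194) and 3.90-fold at 48 h against 12 h (1.96 ± 0.13, adjusted p 2.72e-05). The 12 h rise of Fcgr4 stood close to the 2-fold line, with a log2 fold change of 0.91 without 0 h replicate 2 and of 0.93 without 12 h replicate 2, both still past the test (adjusted p 0.0220 and 0.0138).

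Fcgr3, a low-affinity receptor for immune complexes, had the largest change of the receptor probes at 12 h. Its deposited signals were 1019 and 663 at 0 h, then 1873 and 2402 at 12 h, then 3354 and 4542 at 48 h. Normalized log2 values were 9.65 and 9.61 at 0 h, then 11.00 and 10.87 at 12 h, then 12.17 and 12.03 at 48 h, again with no overlap between time points. Fcgr3 rose 2.47-fold at 12 h against 0 h (log2 fold change 1.30 ± 0.10 SE, adjusted p 0.000282 by limma), and 0.397% of all probes were above it. The fold at 48 h against 0 h was 5.55 (2.47 ± 0.10, adjusted p 1.86e-06), with 0.341% of all probes above it, and the fold at 48 h against 12 h was 2.25 (1.17 ± 0.10, adjusted p 8.50e-05).

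Fcgr1, the high-affinity receptor that binds monomeric IgG2a, moved late. Its deposited signals were 591 and 429 at 0 h, then 502 and 707 at 12 h, then 1185 and 1629 at 48 h. Normalized log2 values were 8.91 and 8.96 at 0 h, then 9.03 and 9.17 at 12 h, then 10.65 and 10.58 at 48 h. At 12 h against 0 h the log2 difference was 0.17 ± 0.093 SE, short of the threshold (adjusted p 0.253 by limma), with a 95% interval from -0.04 to 0.39, although both 12 h values lay above both 0 h values. Fcgr1 rose 3.21-fold at 48 h against 0 h (1.68 ± 0.093, adjusted p 6.55e-06), with 1.38% of all probes above it. Nearly the whole gain fell after 12 h, 2.85-fold at 48 h against 12 h (1.51 ± 0.093, adjusted p 2.36e-05).

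The inhibitory receptor Fcgr2b had 5 probes in the annotation, of which 4 met the rule. The brightest, ILMN_1228657, is annotated to one of the 2 curated RefSeq transcripts of the gene, and the other 3 detected probes, ILMN_2447970, ILMN_3029178 and ILMN_3102376, to the other. The deposited signals of ILMN_1228657 were 2017 and 1161 at 0 h, then 2013 and 3121 at 12 h, then 2130 and 3419 at 48 h. Before normalization the time points overlapped on this probe. Normalized log2 values were 10.59 and 10.46 at 0 h, then 11.10 and 11.22 at 12 h, then 11.52 and 11.64 at 48 h, without overlap. The median deposited signal of the tested probes was 693 and 481 on the 0 h arrays, then 531 and 685 on the 12 h arrays and 436 and 574 on the 48 h arrays, so the arrays differed in overall brightness. From 12 h to 48 h the deposited signals of ILMN_1228657 went from 2013 and 3121 to 2130 and 3419, while those medians fell. ILMN_1228657 rose 1.55-fold at 12 h against 0 h (log2 fold change 0.63 ± 0.099 SE, adjusted p 0.00546 by limma), 2.07-fold at 48 h against 0 h (1.05 ± 0.099, adjusted p 7.65e-05) and 1.34-fold at 48 h against 12 h (0.42 ± 0.099, adjusted p 0.0119). ILMN_1228657 kept its call at 48 h against 12 h in 12 of 17 alternative fits. It lost that call by limma after scaling to the 75th percentile (adjusted p 0.0621) and on the deposited log2 table (adjusted p 0.841). Its log2 fold change at 48 h against 0 h fell just under 2-fold, at 0.99, without 0 h replicate 2 or without 48 h replicate 2. Without 0 h replicate 2 its 12 h change had an adjusted p of 0.0524, and its change at 48 h against 12 h had one of 0.0763 without 12 h replicate 1 and of 0.0658 without 48 h replicate 2.

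The other 3 Fcgr2b probes went the same way with smaller changes in the main fit. They were dimmer, and background had not been subtracted, which lowers the fold changes of dim probes. With a background correction (normexp) all 7 receptor probes were called at least 2-fold higher at 48 h against 0 h. Probe ILMN_3029178 had normalized log2 values of 7.93 and 7.92 at 0 h, then 8.53 and 8.57 at 12 h, then 8.92 and 8.72 at 48 h. Probe ILMN_3102376 had 8.30 and 8.54 at 0 h, then 8.92 and 8.92 at 12 h, then 9.26 and 9.20 at 48 h. Both rose at 12 h against 0 h by limma (0.63 ± 0.098, adjusted p 0.00543, and 0.50 ± 0.10, adjusted p 0.0166) and at 48 h against 0 h (0.89 ± 0.098, adjusted p 0.000176, and 0.81 ± 0.10, adjusted p 0.000382). The 12 h call of ILMN_3102376 was lost without 0 h replicate 1, 12 h replicate 1 or 12 h replicate 2 (adjusted p 0.0919, 0.0695 and 0.0781). The dimmest probe, ILMN_2447970, with deposited signals between 151 and 215, had log2 values of 7.13 and 7.42 at 0 h, then 7.65 and 7.59 at 12 h, then 8.01 and 7.70 at 48 h. It passed the test at 48 h against 0 h (0.58 ± 0.14, adjusted p 0.00788), though not without 0 h replicate 1 (adjusted p 0.0607), and did not pass at 12 h against 0 h (0.35 ± 0.14, adjusted p 0.123). Set against 12 h, at 48 h ILMN_3102376 was 0.31 higher (adjusted p 0.0472), a call lost in each of the 4 fits that left out a 48 h or 12 h array (adjusted p from 0.0986 to 0.163), and ILMN_3029178 and ILMN_2447970 did not pass (0.26, adjusted p 0.0676, and 0.24, adjusted p 0.212), though ILMN_3029178 did without 48 h replicate 2 (0.37, adjusted p 0.0473). Without 48 h replicate 1 the differences of ILMN_3029178 and ILMN_2447970 were 0.16 and 0.08, and without 48 h replicate 2 that of ILMN_2447970 was 0.39. The call of ILMN_3102376 at 48 h against 12 h was kept in 6 of 17 alternative fits.

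Fcer1g, the common chain on which the activating receptors depend, could not be followed. It had 1 probe, which was detected on 0 of 6 arrays, with deposited signals from 83.4 to 101 and detection p-values from 0.302 to 0.969. The lowest signal of a detected probe was between 114 and 139 on the 6 arrays. The fifth Fcgr2b probe, ILMN_2577664, had signals from 118 to 134 and was detected on 3 of 6 arrays, 1 at each time point. A time point was read as detected only when both of its arrays were, and so the probe fell just outside the rule. Its log2 value was 0.08 lower at 12 h and 0.05 higher at 48 h than at 0 h, with the arrays overlapping in both comparisons. Signals at background on a single probe do not show that a transcript was missing. ILMN_2447970, with the lowest signals of the 7 that met the rule, had its highest detection p, 0.0150, on 0 h replicate 1.

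The share of the 48 h change already reached at 12 h was lowest for Fcgr1. The log2 change at 12 h was 10.1% of the change at 48 h for Fcgr1, 34.8% for Fcgr4 and 52.7% for Fcgr3. It was between 59.6% and 70.5% for the 4 Fcgr2b probes. The deposited normalized table treats the arrays as 2 sets of 3, each with 1 array per time point, and the changes were read within each set as well. The log2 changes at 48 h against 0 h in the first and second sets were 1.67 and 1.69 for Fcgr1, 2.38 and 2.56 for Fcgr3, 2.88 and 3.15 for Fcgr4, and 1.04 and 1.06 for ILMN_1228657 of Fcgr2b. At 12 h against 0 h they were 0.27 and 0.08 for Fcgr1, 1.22 and 1.39 for Fcgr3, 1.03 and 1.07 for Fcgr4, and 0.63 and 0.64 for that Fcgr2b probe. For ILMN_2447970 the 12 h and 48 h changes were 0.46 and 0.58 in the first set, and 0.24 and 0.59 in the second. The shares are ratios of 2-array means without a spread, and a difference in share between Fcgr3 and Fcgr2b was not tested. All 7 probes were higher at 48 h and at 12 h than at 0 h in both sets. With the set as a block, ILMN_2447970 passed at 12 h against 0 h too (adjusted p 0.00433), and it and ILMN_3029178 passed at 48 h against 12 h (adjusted p 0.0265 and 0.0147).

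**Figure D2:**
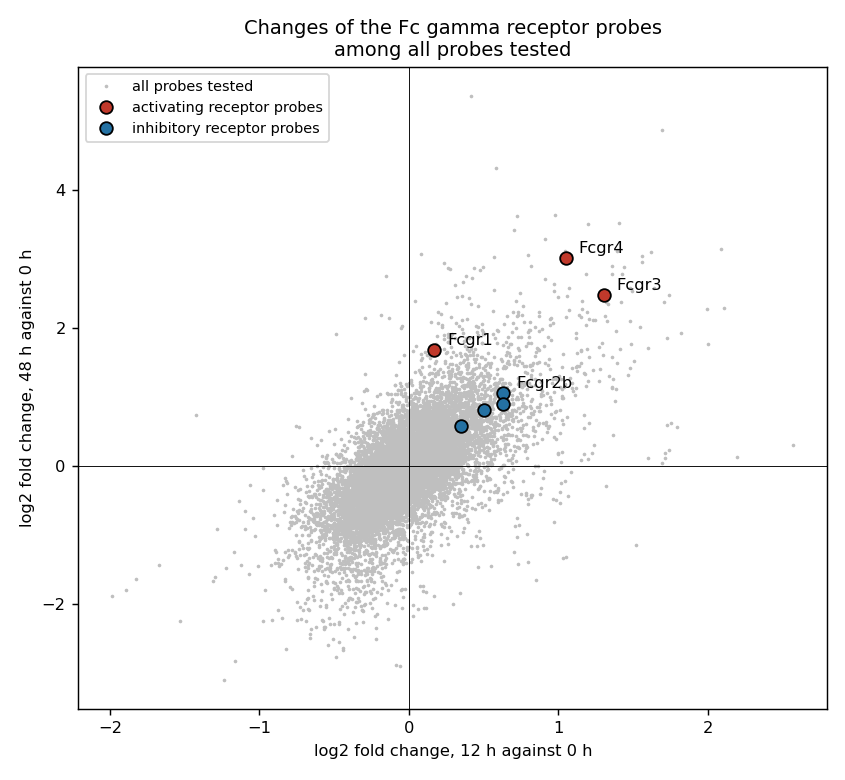
Log2 fold change at 12 h against 0 h (horizontal axis) and at 48 h against 0 h (vertical axis) of the 14091 probes tested (grey points), with activating receptor probes in red and inhibitory receptor probes in blue. Both axes use the same 0 h arrays, and Fcgr1 stands at 0.17 and 1.68, Fcgr3 at 1.30 and 2.47, and Fcgr4 at 1.05 and 3.01.

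The balance of activating over inhibitory receptor signal was measured on each array as the log2 value of an activating probe minus that of ILMN_1228657 of Fcgr2b, set to the mean of the 0 h arrays. For Fcgr4 minus Fcgr2b it was 0.08 and -0.08 at 0 h, then 0.36 and 0.48 at 12 h, then 2.02 and 1.91 at 48 h. For Fcgr3 minus Fcgr2b it was -0.05 and 0.05 at 0 h, then 0.80 and 0.54 at 12 h, then 1.55 and 1.29 at 48 h. Both receptors gained on Fcgr2b at both times, and neither overlapped with 0 h. Fcgr1 minus Fcgr2b went below its starting value before it went above, with -0.09 and 0.09 at 0 h, then -0.47 and -0.45 at 12 h, then 0.73 and 0.53 at 48 h. The activating change exceeded the Fcgr2b change at 48 h against 0 h by 1.96 ± 0.092 (SE) for Fcgr4, 1.42 ± 0.15 for Fcgr3 and 0.63 ± 0.11 for Fcgr1. At 12 h against 0 h the differences were 0.42 ± 0.092, 0.67 ± 0.15 and -0.46 ± 0.11 for the same genes. In each of the 9 comparisons the groups did not overlap and the exact two-sided permutation test gave p = 0.33, the smallest p that 2 arrays against 2 allow. Read against each of the 4 Fcgr2b probes, the 48 h difference ran from 1.96 to 2.43 for Fcgr4, from 1.42 to 1.89 for Fcgr3 and from 0.63 to 1.10 for Fcgr1. The upper ends were those against ILMN_2447970, the dimmest probe, whose fold changes are lowered by the background left in. At 12 h the Fcgr1 difference ran from -0.46 to -0.18, and arrays of 12 h and 0 h did not overlap against 3 of the 4 Fcgr2b probes. The value of -0.18 and the overlap were those against ILMN_2447970, the same dimmest probe.

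**Figure D3:**
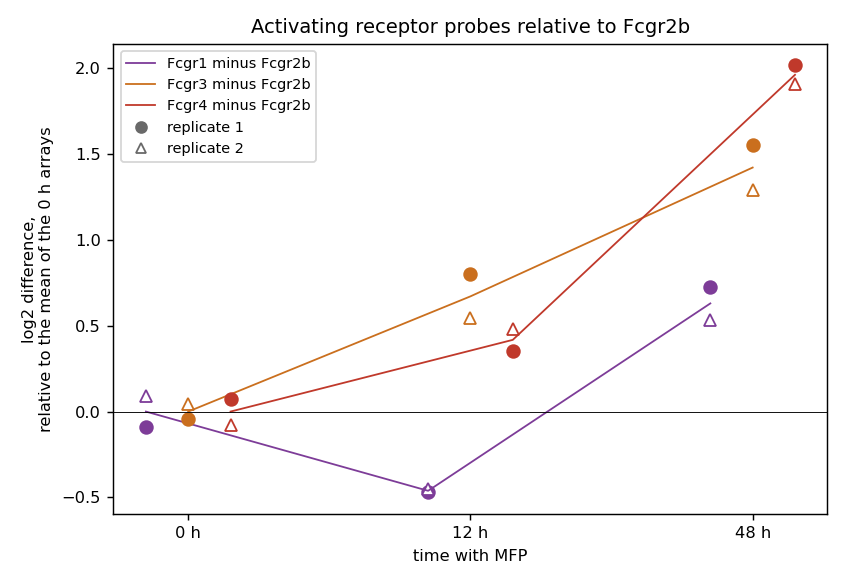
Log2 signal of each activating receptor probe minus that of the Fcgr2b probe ILMN_1228657 on the same array, relative to the mean of the 0 h arrays (vertical axis), by time with MFP (horizontal axis, equal steps), with filled circles for replicate 1, open triangles for replicate 2 and lines through the means. Fcgr1 lies at -0.47 and -0.45 at 12 h, below the zero line, and at 48 h the order is Fcgr4, Fcgr3, Fcgr1.

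Genes that carry the signal below the receptors moved in both directions. Of 19 genes of activating signalling that could be tested, 9 rose, 2 fell and 8 did not pass at 48 h against 0 h (median log2 fold change 0.09), and at 12 h against 0 h 3 rose and 2 fell (median -0.02). The rises were led by the protein kinase C gene Prkcd (1.23), the Rac exchange factor Vav3 (1.18) and the phospholipase D gene Pld1 (0.95). The falls were those of the phosphoinositide 3-kinase subunit Pik3cd (-0.52) and the tyrosine kinase Btk (-0.49). Of 9 genes of inhibitory signalling, 6 fell and 3 did not pass at 48 h against 0 h (median -0.45), and 3 fell at 12 h against 0 h (median -0.28), where 7.82% of all probes fell. The adaptor Dok2 fell by 1.36, the phosphatase gene Ptpn6 (SHP-1) by 0.81 and Csk, a kinase that restrains Src family kinases, by 0.65. Inpp5d, the phosphatase recruited by Fcgr2b and picked out here after its values were seen, fell by 0.60 ± 0.10 (SE, adjusted p 0.00169 by limma). Over all probes 25.0% rose and 25.9% fell at 48 h against 0 h.

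Other receptors that use the common gamma chain could be tested for 4 genes, of which 3 rose at 48 h against 0 h (median 0.89) and 4 at 12 h (median 0.56). These were Clec4e, the lectin Mincle (1.55 at 48 h), and the paired receptors Pira2 (1.01) and Pira1 (0.77). Clec4d was 0.25 higher at 48 h (adjusted p 0.0693 by limma). Tyrobp, the DAP12 adaptor that serves other receptors in the way the common chain serves these, rose by 0.77. In the list of 7 genes that held it, 3 rose and 1 fell, the other rises being Hcst (0.60), which encodes the separate adaptor DAP10, and the receptor Trem3 (0.44), and the fall Clec5a (-0.81). Of 8 other inhibitory receptors with an ITIM, 5 rose at 48 h against 0 h and 1 fell (median 0.81), led by Lilrb4a (1.68), Ceacam1 (1.35) and Cd300a (1.04), while the lectin-like receptor Cd72 fell by 1.05. The median of the 4 detected Fcgr2b probes was 0.85. Of 4 other Fc receptor genes, the neonatal receptor Fcgrt (1.75) and its light chain B2m (0.81) rose, Fcrl1 fell by 0.45, and Trim21 did not pass (0.20, adjusted p 0.194 by limma).

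**Figure D4:**
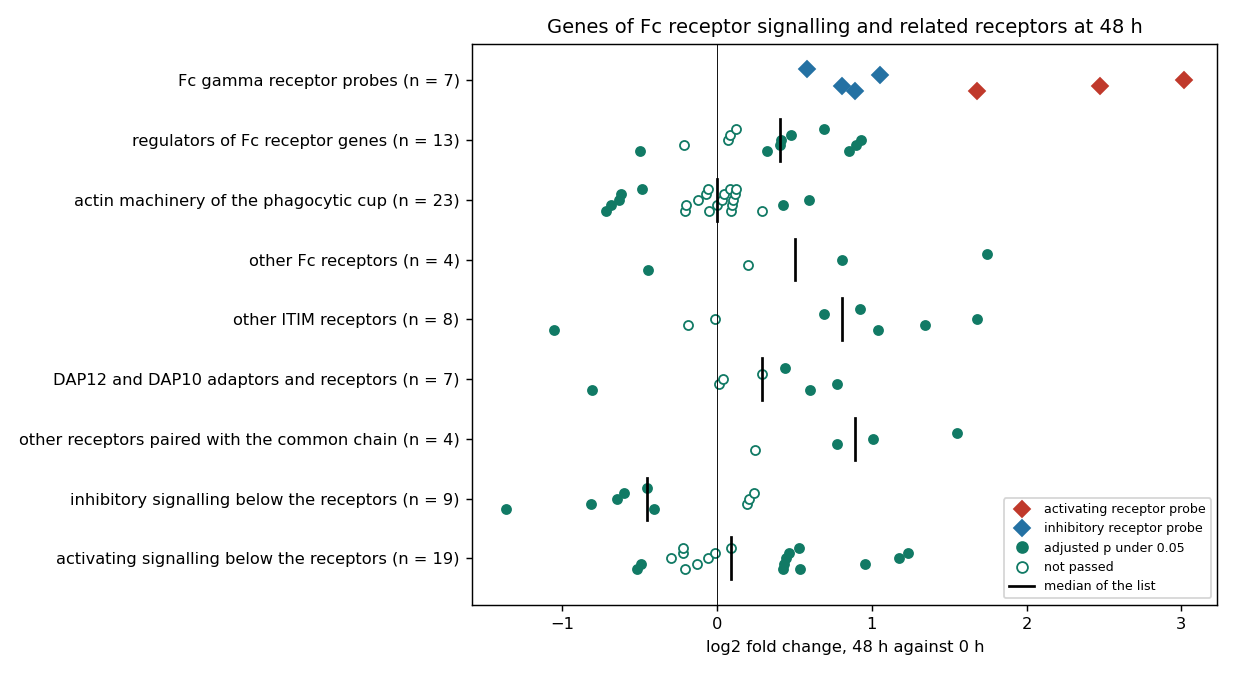
Log2 fold change at 48 h against 0 h (horizontal axis) of the Fc gamma receptor probes (diamonds, red for activating and blue for inhibitory) and of genes of related lists (circles, filled where the adjusted p was under 0.05), with a black bar at the median of each list. The 3 activating receptor probes lie at 1.68, 2.47 and 3.01, with 2.47 and 3.01 beyond every list gene past the test, and the inhibitory signalling genes have a median of -0.45.

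The actin genes of the phagocytic cup, the structure that closes round a bound particle, stayed centred on no change at 48 h against 0 h, with 2 of 23 higher, 5 lower and a median of -0.00. Wasl (0.59), which drives actin branching, and its partner Wipf1 (0.42) rose. Marcksl1 (-0.72), the myosin gene Myo10 (-0.68) and Was (-0.63), the blood cell relative of Wasl, had the largest falls. Among 13 known regulators of Fc receptor genes, 8 rose and 1 fell (median 0.41). Irf1 and Jak2, of the interferon gamma pathway, rose by 0.93 and 0.90, and Stat3 rose by 0.85. The TGF-beta receptor gene Tgfbr1 fell by 1.14 at 12 h and by 0.50 at 48 h against 0 h. Spi1, which encodes PU.1, was 0.21 lower at 48 h, short of the threshold (adjusted p 0.124 by limma).

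Within 200 kb of the chromosome 1 cluster the annotation held 26 other protein-coding genes, and 11 could be tested. By 48 h, 2 of the 11 rose against 0 h (B4galt3 by 1.44 and Ppox by 0.52), 3 fell (Tomm40l by 1.02, Ufc1 by 0.43 and Pfdn2 by 0.25) and 6 did not pass. Of all probes tested, 25.0% rose and 25.9% fell in that comparison, so the neighbours were near those shares. All 3 receptor genes of the cluster rose. The genes most like each receptor were found by the Euclidean distance between log2 values, set to the mean of the 0 h arrays, over the 6 arrays and 8148 genes. Nearest to Fcgr1 were Mreg (distance 0.0892), the prion protein gene Prnp (0.148) and the aldehyde dehydrogenase Aldh2 (0.155). Nearest to Fcgr3 were Tmem154 (0.232), Gtpbp2 (0.286) and Slc46a3 (0.312). Nearest to Fcgr4 were Casp4, an inflammatory caspase (0.288), the proton channel Hvcn1 (0.300) and the glutaminyl cyclase Qpct (0.399). Nearest to Fcgr2b were the plasminogen receptor Plgrkt (0.0618), the actin-binding gene Lima1 (0.107) and the deoxyguanosine kinase Dguok (0.113). Among the receptors Fcgr3 and Fcgr4 were closest to each other (0.909) and Fcgr4 and Fcgr2b farthest apart (2.84).

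The macrophage label fitted the markers, with 10 of 10 macrophage genes that had a probe detected. Several of them moved with the receptors at 48 h against 0 h, 7 rising and 2 falling (median 0.57), with rises in Adgre1 (1.70), Mpeg1 (1.28) and Lyz2 (1.11) and falls in Csf1r (-0.88) and Cd14 (-0.48). Of 42 genes with a probe that mark T, B, NK, mast, dendritic or epithelial cells, neutrophils or fibroblasts, 4 were detected, Cd8b1, Prf1, Hdc and Cdh1. Cd8b1 was the only T cell gene detected. The summed deposited signal of the 6 T cell genes was 5525 to 9010 at 0 h, 5077 to 7631 at 12 h and 4883 to 8065 at 48 h. Fcgr3 is also used by NK cells and neutrophils, and Fcgr4 by neutrophils. Prf1 rose at 48 h against 0 h (0.99 ± 0.15 SE, adjusted p 0.0010 by limma), and the summed deposited signal of the 4 NK cell genes was 651 to 687 at 0 h, 563 to 630 at 12 h and 856 to 990 at 48 h, while the NK genes Ncr1, Klrb1c and Klrk1 and all 7 neutrophil genes were not detected at any time point. The 6 arrays detected between 16176 and 17155 of 45281 probes, with median signals between 102 and 116.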

How the data were processed

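RNA of RAW 264.7 cells at 0 h, 12 h and 48 h with MFP was measured on 6 arrays, 2 per time point. Signal intensity per probe was exported from GenomeStudio and deposited without normalization between arrays. Detection p-values, deposited beside the intensities, set each probe against its array's negative controls. The authors also deposited log2 values, quantile normalized in 2 separate sets of 3 arrays as the values show, which served as an alternative. The submitters' processing notes name R 3.0.2. Every column was mapped to a sample.

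Kept for testing were the 14091 probes (31.1% of the array) detected at p under 0.05 on all 6 arrays. The signals of these probes went through a log2 transformation and quantile normalization of all arrays together, after the study's methods, which removes differences in overall brightness. Background had not been subtracted, which lowers the fold changes of dim probes. A model with 1 mean per time point was fitted per probe with limma 3.58.1 in R 4.3.3, with Benjamini-Hochberg adjustment over all probes tested, and a probe rose or fell at an adjusted p under 0.05. With 3 residual degrees of freedom, the number of arrays limits the precision. Gene names come from the platform annotation, updated through Entrez IDs. It gives 1 symbol to 34885 probes, several to 18 and none to 10378 here, so genes that it does not name were not analysed here. In lists a gene was read on its probe of highest mean. Members and lists were chosen with earlier results of these data known, and no list was tested as a set. Named list genes are the 3 largest rises and the 3 largest falls past the test at 48 h, and members that differ from their list in direction. Inpp5d, Clec4d and Trim21 fell outside this rule and were named after their values were seen. Promoters are those of RefSeq, GRCm38.p6. The fits were tested on simulated data. Alternatives were other detection filters, normexp (offset 16), 75th percentile scaling, the deposited log2 table, replicate and array set blocks, only 4 arrays in the fit, the t-test that the methods name, 2-fold alone, and leaving out each array.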

Additional observations from a re-analysis of the deposited data

How the results depend on the processing

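At 48 h against 0 h the probes of Fcgr1, Fcgr3 and Fcgr4 kept direction and call in all 17 alternatives, with adjusted p up to 0.0373, and no receptor probe changed direction. Of the 7 receptor probes, 5, 7 and 5 rose at 12 h against 0 h, 48 h against 0 h and 48 h against 12 h, and no cause of a change below was tested beyond the values given. Scaling to the 75th percentile gave 3 at 12 h against 0 h and 3 at 48 h against 12 h. The deposited log2 table gave 0, 3 and 1 by limma (2, 6 and 3 at an unadjusted p under 0.05), with 0 at least 2-fold at 12 h against 0 h and 1 at 48 h against 12 h, where 2 and 3 had been called. With the set as a block it gave 6, 7 and 6. The methods' t-test after Benjamini-Hochberg adjustment gave 0, 4 and 0 (4, 6 and 5 at an unadjusted p under 0.05), with 0 and 0 at least 2-fold in the same comparisons. Normexp background correction put 7 in place of 4 past 2-fold at 48 h against 0 h. It put Fcgr1 minus Fcgr2b at 0.78 at 48 h against 0 h and at 1.24 at 48 h against 12 h, and Fcgr4 minus Fcgr2b at 2.08 at 48 h against 0 h. With 1 array left out, 4 to 5 probes rose at 12 h against 0 h, 6 to 7 at 48 h against 0 h and 3 to 5 at 48 h against 12 h (3 without 12 h replicate 1). At least 2-fold were 1 to 2 at 12 h against 0 h (1 without 0 h replicate 2 or 12 h replicate 2), 3 to 4 at 48 h against 0 h and 3 at 48 h against 12 h. Arrays share only a number (correlations of deviations -0.55 for 0 h with 12 h, -0.56 for 0 h with 48 h and 0.65 for 12 h with 48 h). The replicate block lost 1 receptor call, ILMN_3102376 at 48 h against 12 h (adjusted p 0.0742), and left 4 of the list genes lower at 12 h against 0 h in place of 8. The array set block, which crosses these numbers, gave 18 list genes higher and 16 lower at 12 h against 0 h (10 and 8 without it) and 14, not 9, lower at 48 h against 12 h. Over all probes, 1230 rose and 1102 fell at 12 h against 0 h, but 389 and 188 after scaling to the 75th percentile, 2490 and 2738 with the set block (2455 and 2652 on the deposited table, added after seeing the data), 0 and 0 on the deposited table by limma and by the methods' t-test with adjustment (339 and 114, and 1406 and 1491, at an unadjusted p under 0.05), and 472 to 706 and 280 to 411 without a 0 h or 12 h array. The falls were 717 with normexp and 689 with the replicate block. At 48 h against 0 h 3527 rose and 3646 fell, but 402 and 394 on the deposited table and 1011 and 989 by the adjusted t-test. At 48 h against 12 h 2659 rose and 2660 fell, but 1574 and 1465 with scaling, 76 and 93 on the deposited table and 103 and 91 by the adjusted t-test. At least 2-fold at 12 h against 0 h were 141 higher and 22 lower, but 256 and 57 with normexp and 0 and 0 on the deposited table and by the adjusted t-test. At 48 h they were 706 higher and 665 lower against 0 h and 326 and 414 against 12 h, but 402, 394, 76 and 93 on the deposited table and 470, 409, 47 and 36 by the adjusted t-test, and normexp gave 1079 lower against 0 h and 552 and 646 against 12 h. The log2 fold change of ILMN_2447970, nearest to background, ran from 0.43 to 1.11 at 48 h against 0 h.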
